A study of Elopichthys bambusa with 12 samples.

Results

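The livers of fed yellowcheek carp sampled at 28 days were compared with those of fed fish sampled at 8 days, with 3 libraries in each group. Both were the unfasted controls of a study of food deprivation in Elopichthys bambusa, a predatory carp relative. Its other 6 libraries came from livers of fish fasted for 8 days or for 28 days, 3 in each group, and were used here as a reference. All 12 libraries were made from liver RNA. The labels gave no age, sex, strain, diet or tank, and nothing in them tied a replicate to a single fish, so p-values measure the spread between these samples, which may be technical.

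The liver stores glycogen and lipid after meals, releases fuel between meals, and makes most proteins of the blood plasma. A small number of transcripts for secreted proteins usually makes up a large part of liver messenger RNA. The 2 fed groups were both labelled as feeding, without a ration or a time since the last meal, so an equal feeding state is assumed. Their difference shows how far controls that were sampled at different days stood apart. The parts of sampling day, feeding, library batch and read length in it were not tested.

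The files held 42353 features, which are assembled transcript sequences with identifiers of the form that the Trinity assembler writes. They pair no identifier with a gene name, so liver markers and pathways were not checked, and no sequence was used. Each identifier ended in a further last number from 1 to 4, which the labels do not explain. The libraries held between 16785827 and 19901335 estimated counts in total. Of these features, 32212 had enough counts to be tested and 10141 were left out. The tested features held 99.7% to 99.85% of the counts of each library.

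The fed 8-day libraries formed a tight group that stood apart from the other 9 libraries. The correlation of log2 CPM (counts scaled to library size) over tested features averaged 0.904 within the fed 8-day group (3 pairs) and 0.872 within the fed 28-day group (3 pairs). Between both fed groups it averaged 0.739 over 9 pairs, with a range from 0.722 to 0.764. Fed 8-day libraries correlated with fasted libraries at a mean of 0.742 (18 pairs), while fed 28-day libraries did so at 0.805 (18 pairs). Fasted libraries correlated among themselves at 0.869 (15 pairs). These are descriptions over features that share their libraries. Fed 28-day replicate 1 was closest to the fed 8-day libraries (mean 0.763), followed by replicate 3 (0.733) and replicate 2 (0.723). In a principal component analysis of the 6 fed libraries, the first component held 55.6% of the variance. Fed 8-day libraries scored from -143.0 to -138.5 on it and fed 28-day libraries from 118.2 to 157.9. The second component (13.1%) set fed 28-day replicate 2, at 131.4, apart from replicates 1 and 3 of its group, at -87.3 and -57.7. The biological coefficient of variation was 0.485 in the fed 8-day group and 0.556 in the fed 28-day group, against 0.579 and 0.543 in the fasted 8-day and 28-day groups.

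The fed groups differed widely, in both directions. Of the 32212 tested features, 8740 (27.1%) passed edgeR's quasi-likelihood test at a Benjamini-Hochberg adjusted p below 0.05. At 28 days 4601 (14.3%) were higher and 4139 (12.8%) were lower, so that 52.6% of the called features were higher. In bulk liver, fewer cells of a type and less RNA per cell cannot be told apart. The balance of directions depended on the scaling, and scaling by library size alone gave 38.6% higher. Values per feature length (FPKM) tested with limma gave 33.4% higher. The scaling factors were 1.02 to 1.05 in the fed 8-day and 0.835 to 0.917 in the fed 28-day libraries. Scaling by library size alone left these factors out, and so did FPKM. A feature has the same length in every library. Apart from the constant added before the log, length therefore cancels when FPKM are compared between the groups. What lay behind the difference in the factors was not tested. Under these settings the median log2 difference of all features moved from 0.01 to -0.24 with library size alone and to -0.19 with FPKM, and to 0.11 with upper-quartile scaling. Over all tested features the log2 difference had a lower quartile of -0.907 and an upper quartile of 1.002. Called features, which the test selects in part for size, had a median absolute log2 difference of 1.87. It was 2.01 among the higher and 1.72 among the lower features. With the 612 features without a count in one fed group set at their bound (3 counts in each library, or 0.160 CPM at 8 days and 0.195 CPM at 28 days), these medians were 1.84, 1.95 and 1.70. Among the 8128 called features with counts in both groups, 6713 differed at least 2-fold, 3381 at least 4-fold and 1540 at least 8-fold. Of the last, 944 were higher and 596 lower at 28 days.

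The 3 libraries of one fed group did not overlap those of the other for 15144 features (47.0% of those tested), 7564 of them higher (23.5%) and 7580 lower (23.5%) at 28 days. Among the 8740 called features, 8561 had no overlap. The features that were higher at 28 days took up 19.3%, 20.3% and 21.6% of the counts in the fed 8-day libraries. In the fed 28-day libraries they took up 36.7%, 40.4% and 41.7%. The features that were lower at 28 days held 11.99% ± 0.0776 (SD, n = 3) of the counts at 8 days and 3.20% ± 0.205 (SD, n = 3) at 28 days. These shares restate the calls on which the sets were chosen. The fasted livers were no side of that contrast, though they shared its filter, scaling and estimate of the spread. In them the first set held 37.7% ± 1.09 at 8 days and 38.9% ± 2.04 at 28 days (SD, n = 3 each). The second set held 4.44% ± 0.473 and 4.50% ± 0.0300. In both sets the fasted shares lay near those of the fed 28-day livers.

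**Figure D1:**
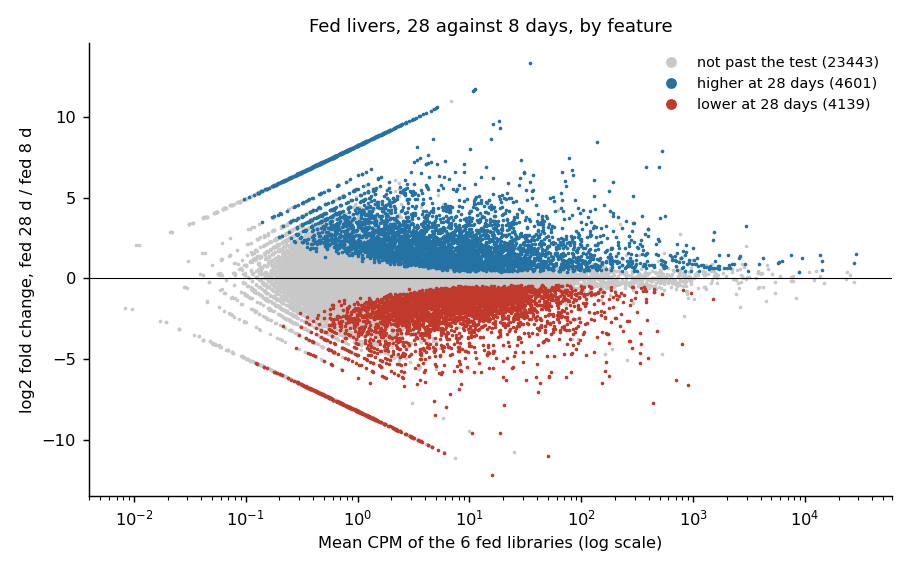
Each point is a tested feature, with the mean CPM of the 6 fed libraries on a log axis and the log2 difference of fed 28-day from fed 8-day livers, blue where higher at 28 days (4601), red where lower (4139) and grey where the test was not passed. Straight lines of points at the edges are features without a count in one fed group, whose fitted difference depends on the prior count. The 29 tested features without a count in any fed library are not drawn.

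The fasted libraries gave a reference for which fed group lay further from the rest. Both comparisons below share the 6 fasted libraries and are set side by side without a test between them. Against the mean of both fasted groups, 10213 features (31.7%) passed edgeR's test in the fed 8-day livers, 5049 higher (15.7%) and 5164 lower (16.0%). In the fed 28-day livers 4313 (13.4%) passed, 2563 higher (7.96%) and 1750 lower (5.43%). The second count depended on the libraries used. It was 3375, 2520 and 2578 without fed 28-day replicates 1, 2 and 3 in turn. It was 2530 against the fasted 8-day libraries alone and 3197 against the fasted 28-day libraries alone. Between fasted 28-day and fasted 8-day livers edgeR called 0 features, with 894 (2.775%) at an unadjusted p below 0.05, and DESeq2 called 32. This does not show that the fasted groups were alike. The change from 8 to 28 days in fed livers minus that in fasted livers, tested as an interaction with edgeR, passed for 4630 features (14.4%). Of these, 2619 (8.13%) were positive and 2011 (6.24%) negative.

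Counting libraries without a test gave the same order. All 3 fed 8-day libraries lay above or below the other 9 libraries for 8221 features (25.5%), 4323 above (13.4%) and 3898 below (12.1%). The fed 28-day libraries did so for 3242 features (10.1%), 1954 above (6.07%) and 1288 below (4.0%). The fasted 8-day and fasted 28-day libraries did so for 256 (0.795%) and 415 (1.29%).

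Among the 8740 features called between the fed groups, the fasted mean was nearer to the fed 28-day mean in 6463 (74.0%). It was nearer to the fed 8-day mean in 2277. Over all tested features the share nearer to fed 28-day was 60.3%. With the fasted 8-day libraries alone as reference the share among called features was 74.1%, and with the fasted 28-day libraries alone it was 72.8%. The fasted mean lay between both fed means for 5579 called features (63.83%) and beyond the fed 28-day mean for 2619 (29.97%). It lay beyond the fed 8-day mean for 542 (6.201%). Over all tested features these shares were 41.57%, 35.62% and 22.81%. A fasted mean beyond either fed mean was thus less frequent among called features than among all tested features. The fed 8-day libraries lay outside the other 9 for 6038 of the called features and the fed 28-day libraries for 2266. Both did so for 841, on opposite sides of the fasted libraries, and neither for 1277. The features higher at 28 days had a median log2 difference of fed 8-day from fasted livers of -1.57, and of fed 28-day from fasted livers of 0.42. For those lower at 28 days the medians were 1.33 and -0.35. In both sets the larger distance from the fasted livers was that of the fed 8-day group, and the fed 28-day group had a smaller median distance of the opposite sign. Since the sets were chosen on the difference between the fed groups, that choice favours a fasted mean between both.

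The most abundant transcripts were called almost only in one direction. Features were sorted by the mean CPM of the 6 fed libraries, a measure that does not correct for length, and the median length rose from 488 nucleotides (nt) under 1 CPM to 2222 nt at 1000 CPM or more. In that top class, 49 of 141 features were called, 48 of them higher at 28 days and 1 lower, and the median log2 difference of the class was 0.37. Most of these calls were of long features. At 2000 nt or more 41 of 80 were called, all of them higher. At 1000 to 2000 nt 7 of 49 were higher and 1 lower, and at 500 to 1000 nt 0 of 12 were called. For 31 of those 48 features (64.6%) the fasted mean lay nearer to the fed 28-day mean, against 60.3% of all tested features and 75.4% of all features higher at 28 days. With the fasted 28-day libraries alone it was 56.25%. Over all 141 features of the class the median log2 difference from fasted livers was -0.07 in fed 8-day and 0.32 in fed 28-day livers. Between 100 and 1000 CPM these medians were 0.10 and 0.36. Above 100 CPM the signed median was thus larger in size in fed 28-day livers under the scaling used. Opposite signs cancel in such a median, so it is no measure of distance. More features passed the test against fasted livers in the fed 8-day group. They numbered 79 against 58 at 1000 CPM or more and 458 against 347 between 100 and 1000 CPM. The signed medians were 0.30 and 0.20 between 10 and 100 CPM, 0.01 and -0.07 between 1 and 10 CPM, and -0.66 and -0.36 under 1 CPM. The scaling factors were 0.835 to 0.917 in fed 28-day, 1.02 to 1.05 in fed 8-day and 0.94 to 1.22 in fasted libraries. These medians were not recomputed under another scaling, and their order may depend on it. Between 100 and 1000 CPM, 362 of 781 features were called, 248 higher and 114 lower. Between 10 and 100 CPM, the class with the highest share of calls, 2695 of 4738 (56.9%) were called, 1288 higher and 1407 lower. Between 1 and 10 CPM, 4595 of 15663 (29.3%) were called, 2301 higher and 2294 lower. Under 1 CPM, 1039 of 10889 (9.54%) were called, 716 higher and 323 lower, against a background over all features of 27.1%.

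The excess of higher calls in the top class held in all 20 alternatives in which it was recomputed, from 72.3% to 98.2% of called features. Scaling by library size alone gave 38 higher against 8 lower, and FPKM tested with limma gave 38 against 14. With the trend with feature length removed it was 30 against 4. The size of the shift was less stable. The median log2 difference of the class, 0.37 as reported, was 0.11 with library size alone and 0.17 with the length trend removed. In limma on log2(FPKM + 1) it was 0.02. Between 1 and 1000 CPM the balance turned with the scaling. Between 100 and 1000 CPM the share of higher calls was 68.5%, but 46.9% when scaled by library size alone and 42.2% for FPKM in limma. Between 10 and 100 CPM it was 47.8%, and 52.25% with upper-quartile scaling. Between 1 and 10 CPM it was 50.1%, and 35.8% with library size alone. Under 1 CPM it was 68.9% and stayed above 50% with each other scaling of the counts, the lowest being 57.25% with library size alone. There it was 42.9% in limma on log2(FPKM + 1) and 51.1% on log2(FPKM + 0.1).

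The most abundant features took a larger share of the counts in every fed 28-day library than in any fed 8-day library. The 100 most abundant features of each library held 52.8%, 52.6% and 52.3% of the counts in the fed 8-day libraries. They held 57.0%, 57.3% and 55.4% in the fed 28-day libraries, a difference in means of 3.98 percentage points. With 3 against 3 libraries the exact permutation test, two-sided here and below, cannot go under 0.1, and it gave p = 0.1 (0.1 when adjusted over 3 such measures). The shares of the top 10 (19.2% ± 0.632 against 21.6% ± 0.318, SD, n = 3 each) and top 1000 features (81.4% ± 0.233 against 84.8% ± 0.883) did not overlap either. Fasted livers held 56.7% ± 2.13 and 55.6% ± 1.05 of their counts in the top 100 at 8 and 28 days (SD, n = 3 each). Per feature length the difference in the top 100 was 1.89 points, with overlapping groups (exact permutation p = 0.3). In the top 10 it was 0.0589 points, also with overlap (exact permutation p = 1.0). In the top 1000 it was 2.41 points without overlap (exact permutation p = 0.1, adjusted 0.3).

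The number of detected features overlapped between the fed groups. At least 1 count was found for 36999, 37188 and 36006 features in fed 8-day livers and for 36805, 36810 and 36887 in fed 28-day livers (exact permutation p = 1.0). At least 10 counts were found for 25379, 25927 and 24079 features at 8 days and for 24257, 24204 and 24147 at 28 days (exact permutation p = 0.4). The fed 8-day libraries spread more widely here, and replicate 3 alone lay below the fed 28-day libraries. Fasted libraries had between 37272 and 39758 features with at least 1 count.

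Some features had counts in one fed group only. No count was found in the 3 fed 8-day libraries for 207 features with a mean of at least 1 CPM at 28 days. In the reverse case there were 189 features. Most were short, with a median length of 397 nt in the first set and 388 nt in the second. Most were also of low abundance, with a median of 2.03 and 2.05 CPM in the other fed group. At a mean of at least 5 CPM there, 20 and 24 features remained, and at 10 CPM 6 and 3 did. Of the first set, 106 had counts in all 6 fasted libraries and 1 had none in any. Of the second set, 39 had counts in all 6 and 33 had none in any. Features absent from the fed 8-day libraries ended in number 1 for 101 and in number 2 for 69, while 20 ended in number 3 and 17 in number 4. Features absent from the fed 28-day libraries ended in number 1 for 3, in number 2 for 9, in number 3 for 65 and in number 4 for 112. Of all tested features, 17.6%, 25.1%, 35.9% and 21.4% ended in numbers 1 to 4.

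Long transcripts held a larger share of the counts in every fed 28-day library. Features of 2000 nt or more held 46.2%, 47.7% and 51.0% of the counts in fed 8-day livers and 56.1%, 56.8% and 59.5% in fed 28-day livers. Every fed 28-day library lay above every fed 8-day library, with a difference in means of 9.14 percentage points (exact permutation p = 0.1, adjusted over 4 length classes 0.1). In fasted livers this share was 59.0% ± 0.508 at 8 days and 59.4% ± 1.24 at 28 days (SD, n = 3 each), near that of the fed 28-day livers. Features of 1000 to 2000 nt held 33.0% ± 1.78 at 8 days and 28.0% ± 1.73 at 28 days. Features of 500 to 1000 nt held 15.2% ± 0.717 at 8 days, and 12.55%, 11.7% and 11.75% at 28 days. Features under 500 nt held 3.48% ± 0.0424 and 2.52% ± 0.242 (SD, n = 3 each). None of these classes overlapped between the fed groups, and each had an exact permutation p of 0.1. Fasted livers at 8 and 28 days held 25.75% and 25.5% in features of 1000 to 2000 nt. At 500 to 1000 nt they held 12.05% and 11.8%, and in both classes they were nearer to the fed 28-day livers. Under 500 nt they held 3.18% and 3.29%, nearer to the fed 8-day livers. As a share of summed FPKM that class held 12.6% at 8 days and 10.4% at 28 days in fed livers. In fasted livers it held 13.0% and 13.5%. Without the 100 most abundant features the difference at 2000 nt or more was 6.87 points, and as a share of summed FPKM it was 6.63 points. At 1000 to 2000 nt these alternatives gave -2.15 points (exact permutation p = 0.2) and -1.36 points (exact permutation p = 0.4), both with overlapping groups, against -4.94 points as deposited. Under 500 nt and at 500 to 1000 nt the groups did not overlap under either.

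By feature, the share called rose with length, from 13.4% of 9780 features under 500 nt through 22.7% of 9951 and 35.6% of 7885 to 51.4% of 4596 features of 2000 nt or more. Longer features also had more counts, and the median of their mean CPM in the fed libraries was 0.817, 1.42, 3.85 and 9.87 from the shortest to the longest class. Among the longest features 1520 were higher and 844 lower at 28 days, so that 64.3% of the called features were higher. The called features between 500 and 1000 nt (1070 higher, 1187 lower) and between 1000 and 2000 nt (1301 higher, 1508 lower) had shares of 47.4% and 46.3%. Under 500 nt, 710 were higher and 600 lower. The difference between length classes was not tested. Among features with at least 10 counts in all 12 libraries, the share of higher calls was 40.8%, 37.5%, 44.0% and 63.9% from the shortest to the longest class. With limma on log2(FPKM + 1) the share at 2000 nt or more was 46.8%, still the highest of the 4 length classes. The shortest had 35.1% there and the others 29.7% and 27.0%. With library size alone the longest class had 50.7%. Both settings leave out the scaling factors, and neither is a correction for length. The median log2 difference of the longest class minus that of all features was 0.25 as reported. It was 0.24 with library size alone, 0.14 on log2(FPKM + 1) and 0.25 on log2(FPKM + 0.1).

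The longest features stood apart in every fed 8-day library. When the tested features were sorted into 10 classes of about equal size by length, the longest class had a median length of 3023 nt. Its median log2 deviation from the mean of all 12 libraries was -0.24, -0.22 and -0.20 in the fed 8-day libraries. In the fed 28-day libraries it was 0.06, 0.15 and 0.06. In the fasted libraries it ran from 0.00 to 0.18. All 3 fed 8-day libraries lay below the other 9 in this class. In the next longest class, with a median of 1953 nt, they lay between -0.03 and -0.01 and the fed 28-day libraries between 0.02 and 0.10. Between 858 and 1444 nt the fed 8-day libraries lay above the fed 28-day libraries, except fed 8-day replicate 1 at 1444 nt, which lay below fed 28-day replicate 1. With the trend of each library with length removed, which by construction brings the length classes to a common level, 8706 features were called, 8183 of them among the 8740. The share of higher calls at 2000 nt or more was then 47.8%.

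**Figure D2:**
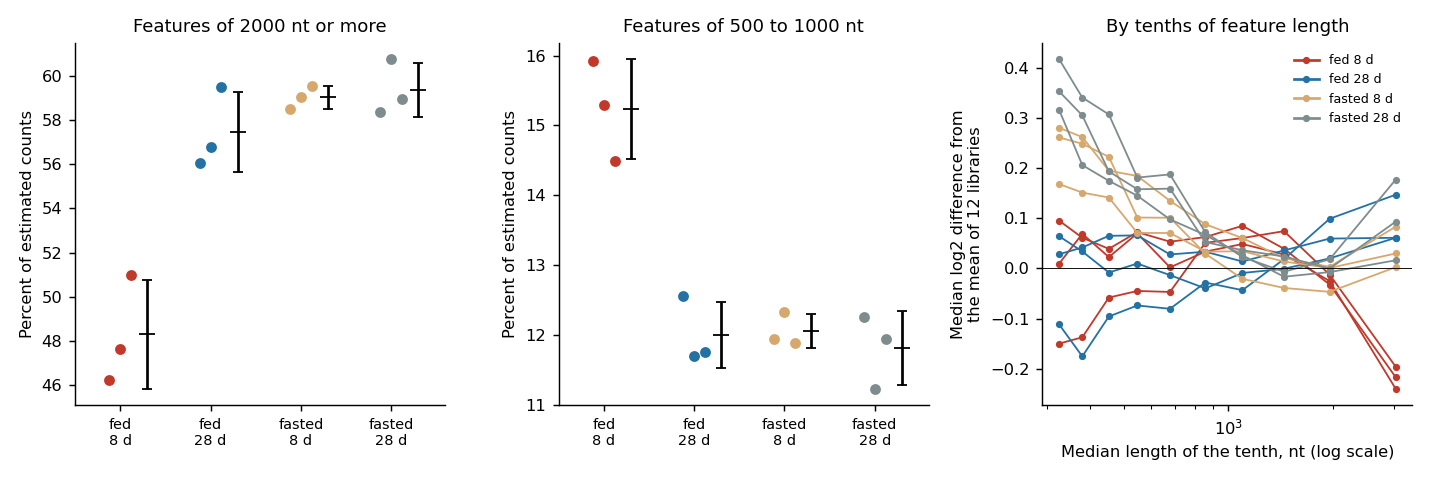
The left and middle panels give the percent of estimated counts in features of 2000 nt or more and of 500 to 1000 nt, with a point for each library and the group mean with its SD beside them (n = 3). The right panel gives, for each library, the median log2 difference from the mean of 12 libraries against feature length in 10 classes on a log axis. The fed 8-day libraries lie lowest in the longest class (-0.24 to -0.20).

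The called features went in different directions by the last number of their identifier. The part of this number in the comparison of the fed groups was not tested beyond the fits given here. Number 1 had 5664 tested features, number 2 had 8096, number 3 had 11571 and number 4 had 6881. Of the features ending in 1, 1342 were higher and 321 lower at 28 days (80.7% of calls higher, median log2 difference 0.69). Of those ending in 2, 1787 were higher and 383 lower (82.4%, median 0.65). Of those ending in 3, 1022 were higher and 1681 lower (37.8%, median -0.29). Of those ending in 4, 450 were higher and 1754 lower (20.4%, median -0.73). The share of tested features called was more alike, at 29.4%, 26.8%, 23.4% and 32.0%. Median lengths were also alike, at 699, 831, 751 and 752 nt.

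This order of the numbers was present within most classes of abundance and in every class of length. Between 1 and 10 CPM, 85.9% and 85.4% of the called features of numbers 1 and 2 were higher, against 32.6% and 14.7% of numbers 3 and 4. Between 10 and 100 CPM these shares were 70.2%, 69.4%, 39.7% and 25.3%. Between 100 and 1000 CPM they were closer, at 71.7%, 76.3%, 63.1% and 63.0%. At 1000 CPM or more the numbers did not differ in direction, with 13, 11, 12 and 12 features higher and 0, 0, 1 and 0 lower. At 2000 nt or more, 86.1% and 86.8% of the called features of numbers 1 and 2 were higher, 50.6% of number 3 and 30.04% of number 4. Among features with at least 10 counts in all 12 libraries the shares over all abundances were 73.4%, 76.3%, 39.6% and 22.6%, with median log2 differences of 0.37, 0.36, -0.18 and -0.54.

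**Figure D3:**
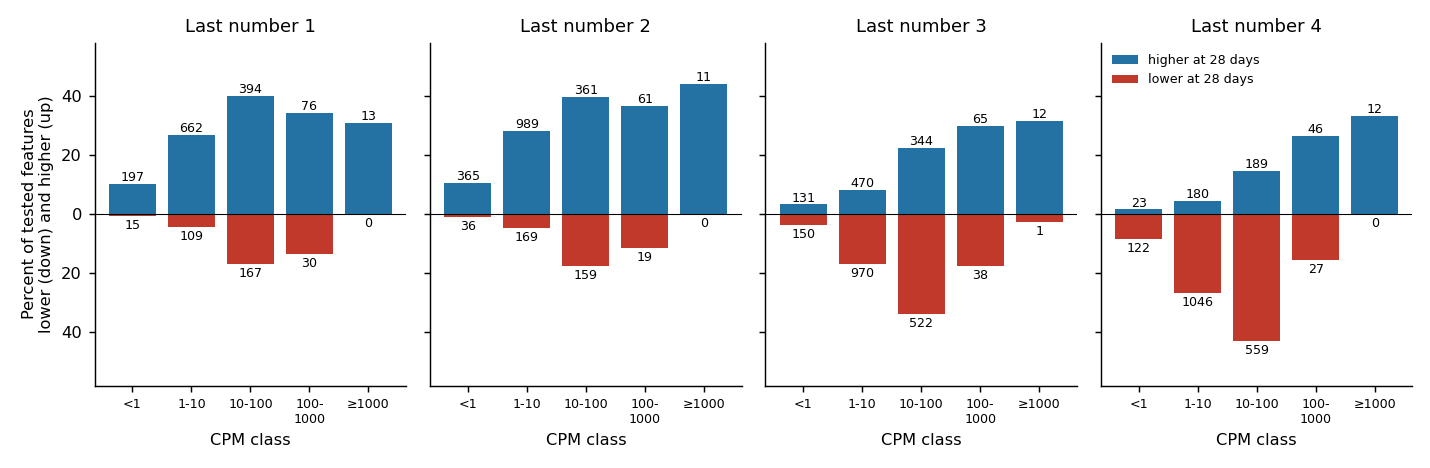
For each last number, bars give the percent of tested features that were higher (blue, up) or lower (red, down) at 28 days, by class of mean CPM of the fed libraries, with the count of features at each bar. Numbers 1 and 2 lean to higher and number 4 to lower up to 100 CPM, while at 1000 CPM or more 48 of 49 called features are higher.

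Scaling and fitting the features of each number on their own centres each number in every library, which by construction takes most of this difference away. It gave 57.7%, 54.6%, 51.9% and 49.6% of called features higher for numbers 1 to 4, with 7917 calls in all, of which 6309 were among the 8740. The numbers of calls were 1623, 2000, 2389 and 1905. In the other 19 alternatives the shares stayed above 50% for numbers 1 and 2 and below 50% for numbers 3 and 4. With limma on log2(FPKM + 1) they were 65.0%, 66.0%, 18.9% and 11.9%. 

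The library values set the fed 8-day livers apart from all others for numbers 1, 2 and 4, and the fed 28-day livers for number 3. For number 4 the median log2 deviation from the mean of 12 libraries was 0.79, 0.51 and 0.77 in the fed 8-day libraries. It was 0.15, -0.14 and -0.09 in the fed 28-day libraries, and between -0.31 and -0.16 in the fasted libraries. Fed 28-day replicate 1, the library closest to the fed 8-day group by correlation, was thus the highest for number 4 outside that group. For number 1 the fed 8-day libraries were at -0.36, -0.38 and -0.45, below the other 9, and the fed 28-day libraries at 0.21, 0.13 and 0.42. For number 2 they were at -0.40, -0.41 and -0.43, again below the other 9, and the fed 28-day libraries at 0.07, 0.33 and 0.12. For number 3 the fed 8-day libraries were at 0.04, 0.23 and -0.02. The fed 28-day libraries were at -0.11, -0.21 and -0.19 for this number, below all fed 8-day and all fasted libraries. The highest library was outside the fed groups for the first 3 numbers. Number 1 was highest in fasted 8-day replicate 3 (0.45), followed by fed 28-day replicate 3 (0.42) and fasted 28-day replicate 1 (0.41). Number 2 was highest in fasted 28-day replicate 2 (0.51), followed by fed 28-day replicate 2 (0.33) and fasted 8-day replicate 1 (0.28). Number 3 was highest in fasted 8-day replicate 2 (0.38), followed by fasted 28-day replicate 3 (0.37) and fed 8-day replicate 2 (0.23). High values of a number thus lay in single libraries of several groups and differed within a group.

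The reference to the fasted livers differed by number. The median log2 difference of fed 8-day from fasted livers was -0.66, -0.70, -0.12 and 0.96 for numbers 1 to 4. That of fed 28-day from fasted livers was 0.08, -0.01, -0.35 and 0.21. Numbers 1, 2 and 4 thus had the signed median of larger size in the fed 8-day livers and number 3 in the fed 28-day livers. Opposite signs cancel in these medians. More features of every number passed the test against the fasted livers in the fed 8-day than in the fed 28-day group, with 3068 against 1365 for number 3.

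**Figure D4:**
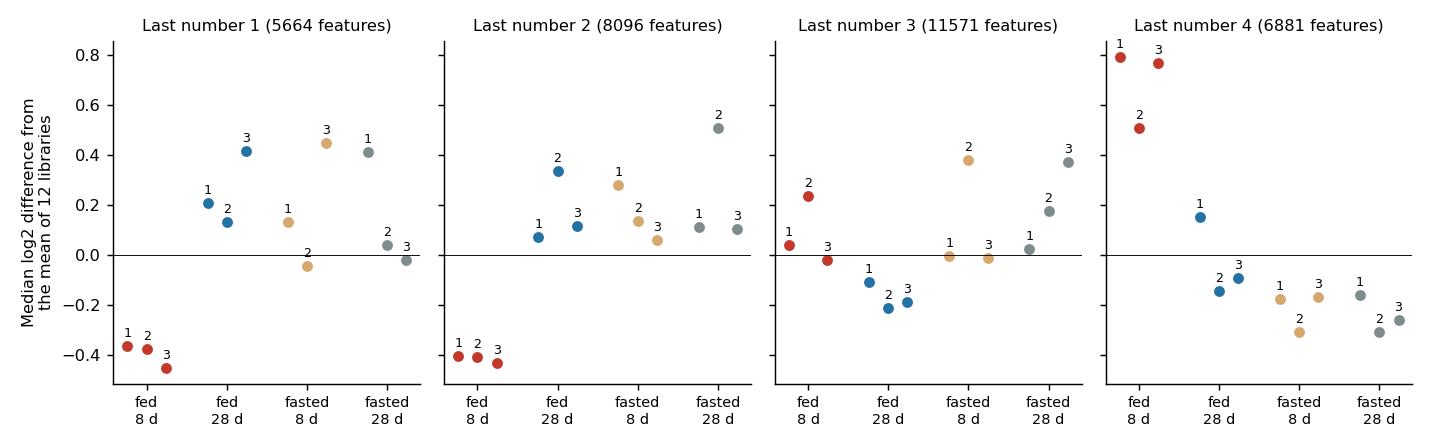
Median log2 difference of each library from the mean of 12 libraries, over the tested features of each last number, with replicate numbers above the points. The fed 8-day libraries are the lowest for numbers 1 and 2 (-0.45 to -0.36) and the highest for number 4 (0.51 to 0.79), and the fed 28-day libraries are the lowest for number 3.

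The shares of counts held by each number differed less. Number 1 held 26.8% ± 0.677 of the counts at 8 days and 29.99% ± 1.18 at 28 days, and number 2 held 18.9% ± 0.229 and 19.6% ± 0.220. Number 3 held 27.7% ± 0.759 and 24.4% ± 0.785 (SD, n = 3 each). For these the groups did not overlap (exact permutation p = 0.1, adjusted over 4 numbers 0.133). Number 4 held 26.6% ± 0.445 and 26.0% ± 0.231 with overlap (exact permutation p = 0.2). Without the 100 most abundant features all 4 numbers were without overlap (exact permutation p = 0.1 each). Number 4 then held 26.1% ± 0.785 at 8 days and 22.2% ± 0.538 at 28 days, and number 1 held 21.7% ± 0.887 and 26.1% ± 1.30 (SD, n = 3 each).

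A small number of features lay mostly in a single library, and in the fed libraries that had any, most of these shared a last number. Features with at least 30 counts and more than 60% of the summed CPM of all 12 libraries in 1 library numbered 22, 14 and 20 in the fed 8-day libraries. They numbered 5, 0 and 12 in the fed 28-day libraries. The fasted libraries had 1, 1 and 2 at 8 days and 2, 0 and 5 at 28 days. In fed 8-day replicates 1 and 3, 20 of 22 and 20 of 20 ended in 4. In fed 8-day replicate 2, 12 of 14 ended in 3. In fed 28-day replicate 1, 5 of 5 ended in 4, and in replicate 3, 11 of 12 ended in 1. The prevailing number was shared by fed 8-day replicates 1 and 3 and was another one in replicate 2.

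The features with the largest differences were named by a fixed rule, which 599 features met, 399 higher and 200 lower at 28 days. They had a count in all 6 fed libraries, passed the test, did not overlap between the fed groups and reached a mean of 100 CPM in the higher group. In each direction the largest fold change and the largest difference in CPM were taken. The files give no gene name for any of them. None of the 20 alternatives run for each of the 4 changed its call or direction.

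TRINITY_DN16641_c0_g1_i15_3, of 3849 nt, had the largest fold increase. Its CPM was 0.671, 0.755 and 0.925 in fed 8-day livers and 240.2, 316.2 and 269.3 in fed 28-day livers. It stood at 55.96, 246.0 and 60.4 in fasted 8-day livers and at 77.2, 305.7 and 224.8 in fasted 28-day livers. The fed 8-day libraries were thus the only ones near 1 CPM, and the other 9 lay at 55.96 or more. The log2 difference of fed 28-day from fed 8-day livers was 8.45 with an SE of 0.82 (edgeR adjusted p = 3.77e-05).

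TRINITY_DN14900_c2_g1_i2_1, of 4291 nt, had the largest increase in CPM. It went from 14096, 15038 and 15356 CPM in fed 8-day livers to 41280, 42447 and 42546 in fed 28-day livers, a ratio of means of 2.84. Its share of the counts was 1.53% at 8 days and 3.63% at 28 days. Fasted livers had 43004 ± 8833 CPM at 8 days and 35775 ± 4848 at 28 days (SD, n = 3 each), so that the fed 8-day libraries were again below all others. The log2 difference was 1.51 with an SE of 0.16 (edgeR adjusted p = 6.53e-05), and it lay between 0.96 and 1.60 over the alternatives.

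TRINITY_DN16419_c0_g1_i1_3, of 1983 nt, had the largest fold decrease. Its CPM was 824.5, 788.1 and 1012.5 in fed 8-day livers and 5.25, 1.95 and 5.21 in fed 28-day livers. All 6 fasted libraries lay between 1.30 and 3.62 CPM. The log2 difference was -7.72 with an SE of 0.49 (edgeR adjusted p = 2.78e-06). Every fed 8-day library was at 788.1 CPM or more and every other library at 5.25 CPM or less.

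TRINITY_DN16815_c1_g2_i21_3, of 4593 nt, had the largest decrease in CPM. It stood at 1716, 1724 and 1867 CPM in fed 8-day livers and at 15.95, 21.9 and 16.1 in fed 28-day livers. Fasted livers had 7.62 ± 2.71 CPM at 8 days and 11.2 ± 4.39 at 28 days (SD, n = 3 each). The log2 difference of fed 28-day from fed 8-day livers was -6.62 with an SE of 0.37 (edgeR adjusted p = 1.17e-06). Of the 4 features it was the one for which the fed 28-day livers also differed from the mean of the fasted groups, by a log2 difference of 0.96 (edgeR adjusted p = 0.0262). For the others that adjusted p was 0.308, 0.684 and 0.202, in the order above. In all 4 the fed 8-day livers differed from the fasted mean, with log2 differences of -7.63, -1.40, 8.43 and 7.58 (edgeR adjusted p of 3.09e-05, 3.30e-05, 1.18e-07 and 3.27e-08). The 4 features were chosen for extreme differences between the same fed libraries. Their values against the fasted mean are thus not independent of that choice and describe these features only.

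**Figure D5:**
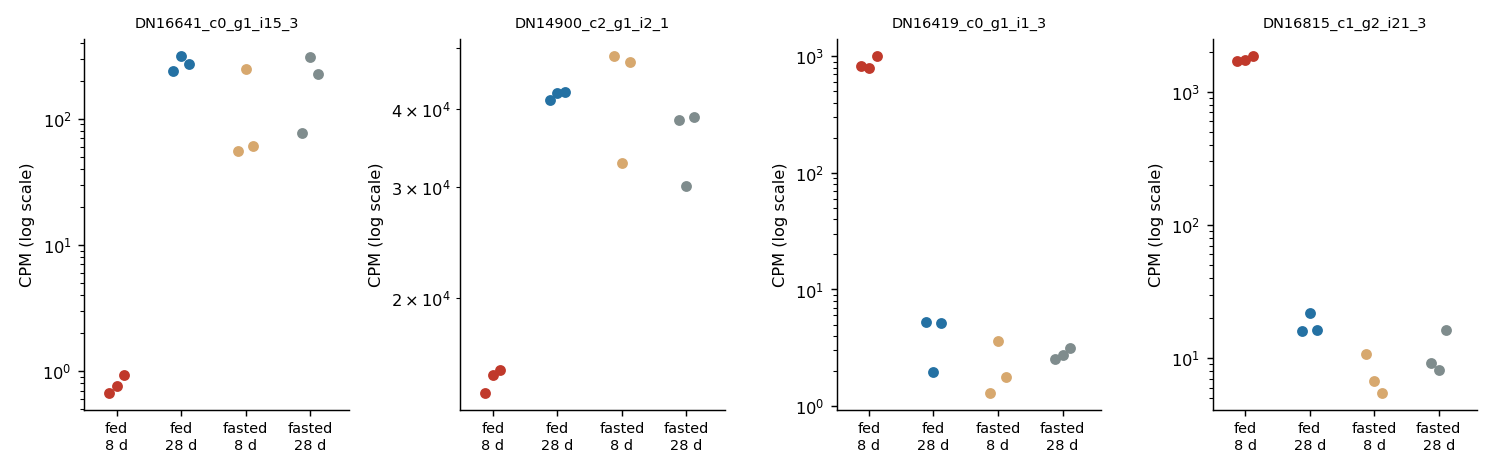
CPM on a log axis in each of the 12 libraries for the 4 named features, by group, with a point for each library. In each panel the fed 8-day libraries lie apart from the other 9, below them in the first 2 panels and above them in the last 2.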

How the data were processed

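Liver RNA of 12 samples was sequenced, 3 in each of 4 groups. Per the labels' protocols, liver RNA passed an integrity number of at least 7, libraries were stranded and made from mRNA, and paired reads had 125 or 150 nucleotides. Which library had which read length was not stated. Trimmomatic and Bowtie2 are named, without versions, per the submitters' processing notes. No source used here names the assembler, the counting program or an annotation.

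The authors deposited estimated counts, which are not whole, so reads of near-identical features may be split and such features are uncertain. The authors also deposited FPKM, that is, counts per kilobase and library size. Dividing counts by FPKM gave feature lengths, 100% of them whole within 0.02 nt. Intervals are not given per share, and the number of libraries limits the precision.

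Estimated counts were rounded. The design assumed counts of features and was otherwise kept. Features were filtered with filterByExpr by group, scaled by TMM (factors 0.835 to 1.22) and fitted as 4 group means over 12 libraries with edgeR 4.0.16 in R 4.3.3 (robust quasi-likelihood, common dispersion 0.293, Benjamini-Hochberg adjustment over 32212 features). The script was tested on simulated counts. CPM are on TMM-scaled library sizes, and log2 CPM used a prior count of 2. Shares of counts were compared by exact permutation tests with scipy 1.17.1. Alternatives used DESeq2 1.42.0, limma 3.58.1 on log2(FPKM + 1) and log2(FPKM + 0.1), other scalings and filters, and left out libraries. Deviations of fed livers of the same replicate number from their group means correlated at 0.02, 0.03 and -0.001, so no clear pairing was seen. For replicates 1 and 2 the same number was still the best match. With 3 libraries in each group this cannot exclude a pairing or a shared batch, and fasted livers were not checked this way. No 2 libraries of a fed group were duplicates, though fed 8-day replicates 1 and 2 were the closest pair by chi-square per feature. It was 13.1 for them and 45.6 to 66.4 for the other pairs within a fed group, over features with at least 20 counts in both libraries.

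The features, classes and lists were chosen with earlier results of these data known. Named features were, in each direction, the one with the largest fold change and the one with the largest difference in CPM under the rule given with them. Lists of liver, immune and pathway genes were planned and not run, because the files pair no identifier with a gene name.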

Additional observations from a re-analysis of the deposited data

Results flagged for a closer look

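The change from 8 to 28 days differed between fed and fasted livers for 4630 features by edgeR's interaction test. It also differed for each of the 4 named features, with differences on the log2 scale of 7.70 for TRINITY_DN16641_c0_g1_i15_3 (edgeR adjusted p = 0.000458), 1.77 for TRINITY_DN14900_c2_g1_i2_1 (0.000522), -8.03 for TRINITY_DN16419_c0_g1_i1_3 (2.56e-05) and -7.17 for TRINITY_DN16815_c1_g2_i21_3 (8.11e-06). The fed 8-day group enters this test and the fed comparison alike, so they are not independent. In fasted livers the changes of these features from 8 to 28 days were 0.75, -0.27, 0.31 and 0.55 on the log2 scale, each with an edgeR adjusted p of 1.0.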

How the results depend on the processing

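The count of 8740 differing features ranged from 6620 to 7651 when 1 fed library was left out, was 4885 at an adjusted p below 0.01, and reached 10975 with DESeq2. With the replicate number as a block it was 8162, with 52.1% higher. Whether the numbers pair samples is not known. The share of higher calls (52.6%) turned to 38.6% with library size alone, 33.4% with limma on log2(FPKM + 1), 35.8% on log2(FPKM + 0.1), 33.2% on log2(FPKM + 1) without a filter, and 48.2% with the length trend removed. At 2000 nt or more it turned to 46.8%, 47.8% and 47.3% with those 3 limma fits and to 47.75% with the length trend removed, where the median difference from all features was -0.006468. For last number 3 it turned to 51.9% when each number was fitted on its own. The length correction and the fits by number centre those classes by construction. Library size alone and the limma fits on FPKM leave out the scaling factors, and the part of this in their turns was not tested. The library totals behind FPKM were 95.85% to 98.16% of the summed counts in fed 8-day libraries. In fed 28-day libraries they were 99.13% to 103.18%. Fed 28-day livers against the fasted libraries gave 2520 to 3876 calls when 1 fed library was left out and 2530 with the fasted 8-day libraries alone, against 4313. The interaction count of 4630 ranged from 3258 to 4520 when 1 library was left out and was 6730 with DESeq2. The difference in features with at least 1 count (103) turned to -925.7 at 10 counts, and ranged from -259.5 to 331.5 when 1 fed library was left out, the lowest without fed 8-day replicate 3. For the comparisons with fasted libraries, leaving out fed libraries, RLE and upper-quartile scaling, the replicate block and the length trend were chosen after seeing the data. So were upper-quartile scaling for the interaction and the classes restricted to 10 counts in all 12 libraries. Summing isoforms was not run. No 2 identifiers shared both a locus and a last number, and identifiers that shared a locus across last numbers were not counted.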
